A study of Mus musculus with 2 samples.

Results

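T cell receptor V segments are the gene pieces that encode most of the antigen-binding part of a T cell receptor chain. They were taken as every gene or pseudogene with the symbol Trav, Trdv or Trbv followed by a number on mouse chromosomes 14 and 6, in GENCODE annotation vM21 on build mm10. There were 169 of them among 55413 annotated genes, with 128 Trav (alpha), 6 Trdv (delta) and 35 Trbv (beta) segments. Of these, 135 were annotated as V genes and 34 as V pseudogenes. Binding of CTCF was measured around them by chromatin immunoprecipitation with sequencing (ChIP-seq). The tissue was the liver of B6NCrl mouse embryos at day 14.5, from both sexes, pulverised and pooled from several dissections. The series has 1 group of 2 libraries, numbered as biological replicates 1 and 2 but drawn from 1 biosample, so their spread covers library making and sequencing only. Read depth is unknown, the control library was not analysed here, and peak lists give no expression values by which the cell types could be checked.

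A T cell receptor gene is assembled in developing T cells, mainly in the thymus, when the RAG recombinase joins a V segment to D and J segments at recombination signal sequences. In the mouse alpha-delta (Tra-Trd) and beta (Trb) loci, nearly all V segments form a long array on one side of the D, J and C segments, and loops in the chromatin bring distant V segments close to them. CTCF is a zinc finger protein that stops the extrusion of such loops by cohesin, and a pair of bound sites anchors a loop most often when their motifs point to each other. Much of the Tra-Trd array exists in near-identical copies, and the letters d and n in many Trav symbols mark segments of the repeated blocks. Trdv5 and Trbv31 lie past the D segments and on the minus strand, and every other V segment is on the plus strand. Symbols ending in dv with a number are segments usable by both the alpha and the delta chain.

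Sequences under the peaks show what the sites look like. The 30-base windows below hold the match to the core CTCF motif in capitals with 8 bases on each side, written 5′ to 3′ along the strand of the match, from build mm10. The first 6 are from sites just before the start of alpha V segments, the next 3 from sites by beta V segments, and the last 3 from strong sites away from any V segment.

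Trav12-1, chr14:53538074-53538103 (+): aagggaaaCCAGCAGAGGGCGCtgcccctt
Trav12-3, chr14:53621560-53621589 (+): aagggaaaCCAGCAGAGGGCGCtgtccctt
Trav3-3, chr14:53665831-53665860 (+): gaagctgtCCACTAGGGGGCAGagcatcac
Trav3-4, chr14:53776867-53776896 (+): gaagctgtCCACAAGGGGGCAGagcatctc
Trav6n-6, chr14:53132561-53132590 (+): gctcctgtCCACCAGGGGGCGCagatgcct
Trav17, chr14:53806394-53806423 (+): acctttgaCCACAAGGGGGCACtgttgcat
Trbv12-1, chr6:41113045-41113074 (+): acagctgaTCACTAGGTGGCGCtgtggacc
Trbv12-2, chr6:41118349-41118378 (+): gtggctgcACATTAGGGGGCGCtgctgatc
Trbv19, chr6:41179099-41179128 (+): tgctttccCCACCAGGTGGCTCttaggtcc
Before Trdv4, chr14:54064705-54064734 (+): gcttttgaACACTAGGGGGCAAtgctggat
Before Traj61, chr14:54153024-54153053 (-): tagttagaGCAGCAGGGGGCGCtgtgaggt
Intron of Dad1, chr14:54239231-54239260 (+): aggtgcatCCACTAGATGGCGGcagagtgc

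A V segment was counted as having CTCF when a summit of the optimal peak list lay within 1 kb of its annotated span. The optimal list is the authors' list of 50909 peaks, made from both replicates and thresholded by the irreproducible discovery rate (IDR). A peak in it need not be found in each replicate's own list. The optimal peaks at chr14:53751069-53751384 and chr6:41194498-41194813, for instance, had none within 100 bp in replicate 1. Of the 169 V segments, 21 had such a summit, which is 12.4% (Wilson 95% interval 8.27 to 18.2%, counting error only). The count was 16 among the strongest 50909 peaks of replicate 1 and 24 among those of replicate 2, or 20 ± 5.66 (SD, n = 2), and 15 segments were counted in both. The same rule called 31.9% of all annotated genes and 7.71% of the genes no longer than the longest V segment, 1840 bp. Among antibody V segments it called 7.57% of the Ighv segments of the heavy chain (14 of 185) and 0% of the Igkv segments of the kappa chain (0 of 160). No test over samples can be made with 1 group, so these shares stand as a description.

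By chain, 14 of 128 Trav segments (10.9%), 0 of 6 Trdv segments and 7 of 35 Trbv segments (20%) had a summit. The wide intervals of Trav (6.63 to 17.5%) and Trbv (10 to 35.9%) overlap. V genes and V pseudogenes were close, with 16 of 135 (11.9%) and 5 of 34 (14.7%). The shares by copy letter lay farther apart, but their wide intervals overlap as well. Among Trav segments with the letter n, 3 of 34 had a summit (3.05 to 23%). With the letter d it was 1 of 39 (0.454 to 13.2%). With neither letter it was 10 of 55 (10.2 to 30.3%). In the same order, the median share of sequence around the segments that occurs once in the genome was 1.25, 2.21 and 51.8%. The part of this in the difference was not tested. The segment whose peak lay farthest within the limit was Trbv10, with its summit 610 bp away. Trbv5, at 1044 bp, was the nearest one outside it.

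**Figure D1:**
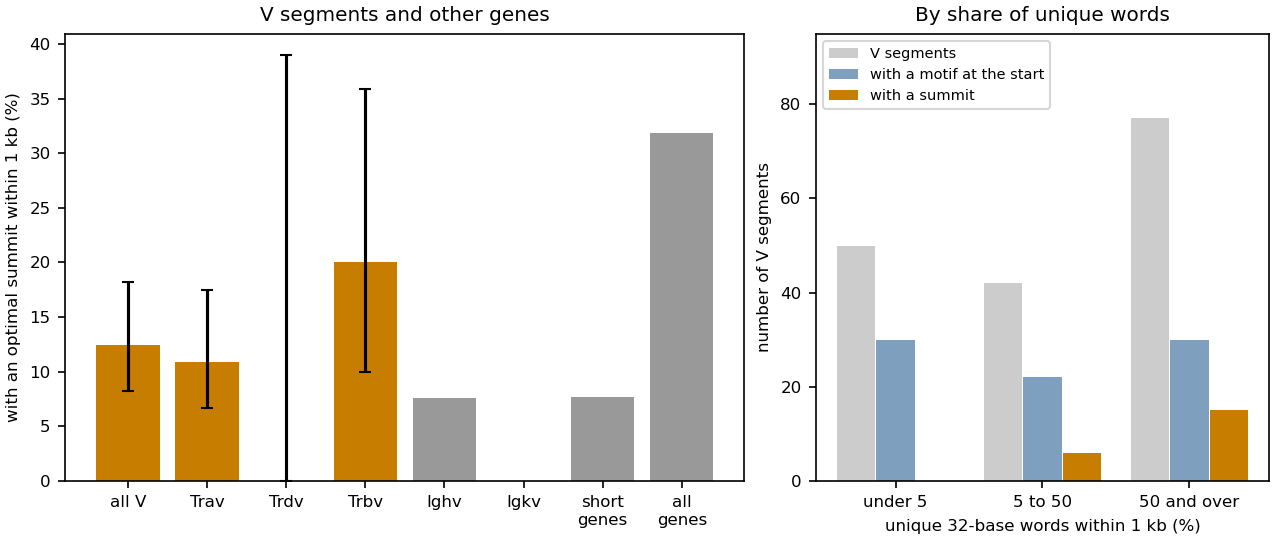
Left, the share of genes with an optimal CTCF summit within 1 kb (percent), for the V segments (orange, with Wilson 95% intervals) and for other genes (grey; short genes are those no longer than the longest V segment). Right, the number of V segments by the share of unique 32-base words within 1 kb, with those that have a motif match at their start and those that have a summit. All V segments reach 12.4% and short genes 7.71%, and the 50 V segments with under 5% unique words have no summit.

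The summits beside alpha V segments lay in a narrow band just before the segment's start. Of 15 summits within 1 kb of a Tra-Trd V segment, 14 lay before the annotated start and 13 of those within 300 bp of it, at a median of 103 bp before the start over all 15. Those closest to the start belonged to Trav12-2 (53 bp before it), Trav3-4 (66 bp), Trav12-3 (74 bp), Trav3-3 (86 bp) and Trav6-7-dv9 (87 bp). Trav10d, Trav6n-6, Trav8n-2, Trav12-1, Trav8-2, Trav5-1, Trav17 and Trav9n-1 followed at 100, 103, 108, 108, 133, 182, 233 and 251 bp. The pseudogene Trav5-2 was farther out, at 411 bp, and Trav6-7-dv9 had a weak second peak 112 bp inside the segment. Some of these sites are near-identical copies of each other, as within the Trav3, Trav8 and Trav12 families, so their positions are not independent.

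Recombination signals were sought as the heptamer CACAGTG, a spacer of 22 to 24 bases and the nonamer ACAAAAACC, on the strand of the segment, within 60 bases of its 3' end. A match with at most 4 mismatches followed 142 of 169 V segments (84%), against 1.18% for the same search 1 kb farther on. The 14 alpha summits before a start lay 562 to 716 bp upstream of the heptamer of their segment's best match. That match had at most 4 mismatches for all but Trav10d, which had 5.

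Beta V segments had their summits elsewhere. Only Trbv20 had one within 300 bp of its start, 110 bp before it. The summits of Trbv12-2, Trbv12-1, Trbv12-3, Trbv2 and Trbv10 lay 477, 490, 530, 593 and 610 bp before the start. At Trbv19 the summit lay beyond the segment, 67 bp past its annotated end and 66 bp past the start of its heptamer. In all, an optimal summit lay within 300 bp of the start of 14 V segments (8.28%), with 13 in the Tra-Trd locus (9.7%) and 1 in the Trb locus (2.86%). The share among genes of at most 1840 bp was 2.76%. Near-identical copies in the Tra-Trd locus were each counted as a segment in these shares. No Ighv and no Igkv segment had a summit that close to its start. Of the 15 summits near Ighv segments, 12 lay beyond the 3' end, at a median of 503 bp past the start over all 15.

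**Figure D2:**
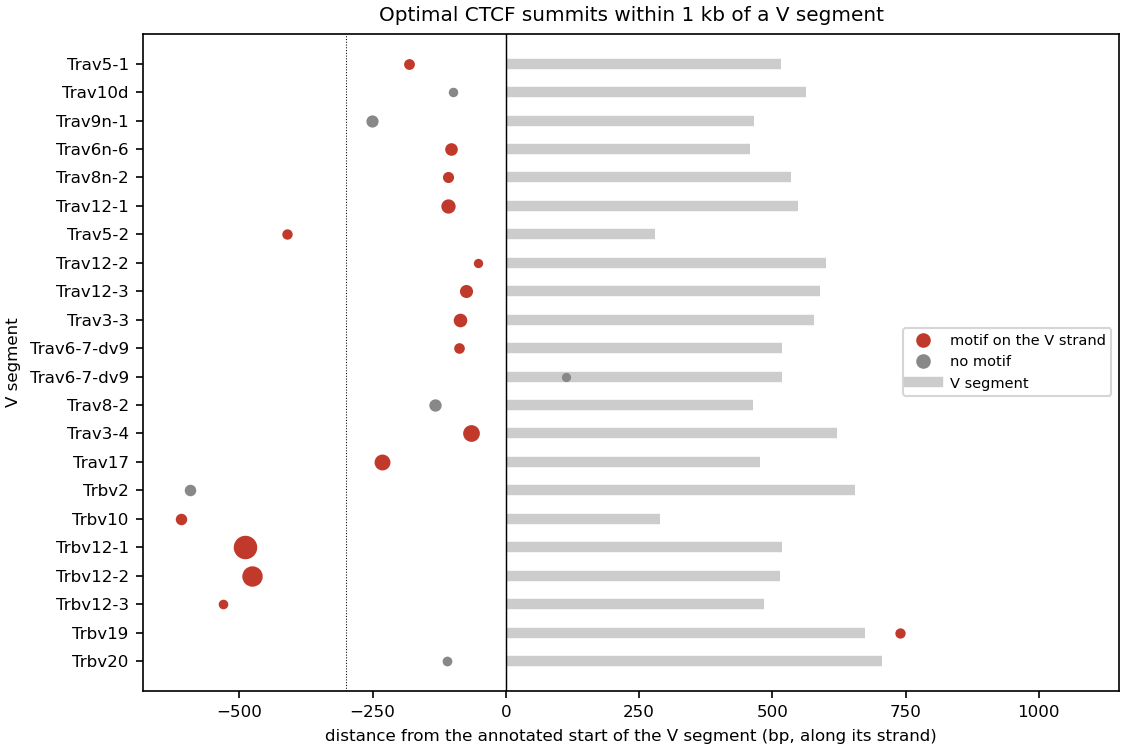
Position of each optimal CTCF summit within 1 kb of a V segment, in bp from the annotated start along the segment's strand. Grey bars are the V segments, the dotted line is 300 bp before the start, and larger points have higher signal. The alpha summits gather 53 to 251 bp before the start except those of Trav5-2 and 1 of Trav6-7-dv9, while most beta summits lie 477 to 610 bp before it.

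The peaks by V segments ranged from weak to strong. The deposited signal has no stated scale and was therefore compared only within a list. Across the 22 peaks within 1 kb of a V segment the median signal was 60.5, with a range of 17.3 to 291, and over all optimal peaks it was 67.9. A relative signal was also taken in each replicate, as its own peak within 100 bp of the summit divided by the median of its strongest 50909 peaks. Its median over the 22 peaks was 0.866 in replicate 1 and 1.01 in replicate 2, or 0.941 ± 0.105 (SD, n = 2).

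The strongest belonged to the beta family Trbv12. At Trbv12-1 (peak chr6:41112937-41113183) the signal was 291, and the relative signal was 4.94 in replicate 1 and 3.80 in replicate 2. At Trbv12-2 (chr6:41118267-41118481) it was 232, with relative signals of 4.03 and 2.90 in replicates 1 and 2. The pseudogene Trbv12-3 (chr6:41126904-41127219) stood far below its relatives, with a signal of 24.5 and relative signals of 0.286 and 0.427. In both replicates Trbv12-3 lay below the other members of the family, with no overlap of values. The other beta peaks were weak to intermediate, with signals of 60.9 at Trbv2, 60 at Trbv10, 37.9 at Trbv19 and 27.0 at Trbv20.

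Among alpha segments the highest signals were 161 at Trav3-4 (chr14:53776789-53776988), 145 at Trav17 (chr14:53806312-53806505), 114 at Trav12-1 (chr14:53538025-53538162) and 101 at Trav3-3 (chr14:53665815-53665960). Trav3-4 had relative signals of 2.49 and 2.16 in replicates 1 and 2. For Trav17 the replicates were far apart, at 1.13 and 3.14. Trav12-1 had 2.10 and 1.36, and Trav3-3 had 1.76 and 1.33. Apart from Trav17, these alpha peaks were somewhat higher in replicate 1.

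A middle group of alpha peaks held Trav12-3 (signal 91.3), Trav6n-6 (82.0), Trav8-2 (76.8), Trav9n-1 (74.1), Trav8n-2 (53.1), Trav5-1 (47.3), the outer peak of Trav6-7-dv9 (44.1) and Trav5-2 (38.9). The lowest were Trav10d (22.3), Trav12-2 (18.5) and the inner peak of Trav6-7-dv9 (17.3). Support differed between libraries for several of these. Trav5-2 had a relative signal of 0.203 in replicate 1 and 0.973 in replicate 2, and the outer peak of Trav6-7-dv9 had 0.309 and 1.02. Trav6n-6, at 1.27 and 1.23, was almost equal in both.

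**Figure D3:**
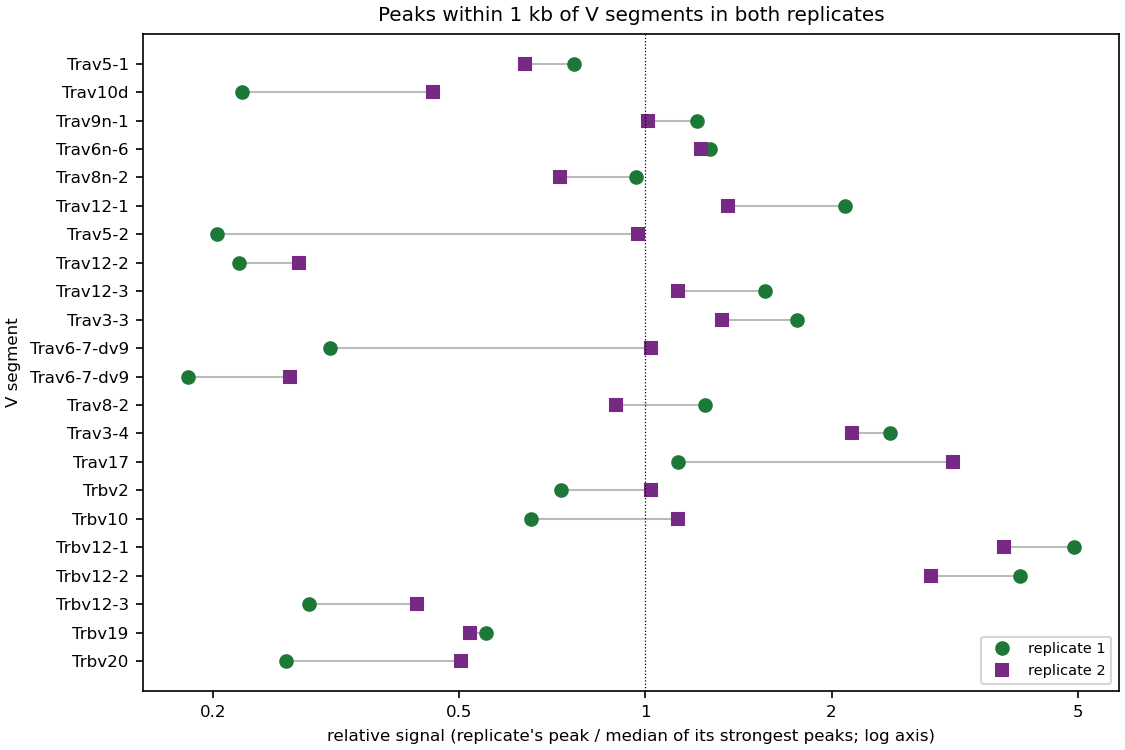
Relative signal of the 22 peaks within 1 kb of V segments in replicate 1 (circles) and replicate 2 (squares), on a log axis, where 1 is the median of that replicate's strongest 50909 peaks. Trbv12-1 lies highest in both replicates. Next comes Trbv12-2 in replicate 1 and Trav17 in replicate 2. Trav5-2, Trav17 and the outer peak of Trav6-7-dv9 show the widest gaps between replicates.

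The core CTCF motif was searched on both strands within 50 bp of each summit with at most 2 mismatches over its 14 bases. Of the 22 summits by V segments, 16 had a match (72.7%), against 70.8% of all placed optimal summits and 3% of windows moved 1 kb away. All 16 matches lay on the strand of the V segment, and 6 had no mismatch. Some of these sites are copies of each other, such as those of Trav12-1, Trav12-2 and Trav12-3, so the matches are not independent. The windows of Trav3-3 and Trav3-4 printed above are relatives, 93.4% identical over 61 bases. Trav12-2, not printed, is identical to Trav12-3 over 61 bases, yet its peak had a signal of 18.5. Trav8-2 had no match within 50 bp of its summit, but one without a mismatch lay farther out, 215 bp before its start.

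A motif match at the start was far more common among V segments than a peak. In the 300 bases from 250 before the start of each segment, 82 of 169 V segments (48.5%) had a match, 72 of them on the segment's strand. Of 32851 promoter windows of the same length from RefSeq (build GRCm38), which held none of the V segments, 14.4% had one. All 8 members of the Trav3 family had such a match, and 2 of them a summit. The Trav7 family had 9 matches in 13 members and no summit, and the Trav11 family 3 in 3 and no summit. In the Trb locus 6 of 35 segments had a match. Many Tra-Trd segments are near-identical copies, which are not independent, and each copy was counted as its own segment here. Of the 82 segments with a match, 14 had a summit within 1 kb (17.1%), and of the 87 without, 7 did (8.05%).

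The share of sequence that occurs once in the genome moved with the presence of peaks. It was measured as the percentage of 32-base words within 1 kb of a segment that were found nowhere else. The median was 65.7% over segments with a summit and 37.6% over those without. Of 50 segments with under 5% unique words, all in the Tra-Trd locus, 0 had an optimal summit and 0 had a peak in the list of 300000 of either replicate within 1 kb, although 30 had a motif match at the start. Of 42 segments with 5 to 50% unique words 6 had a summit, and of 77 segments with 50% or more 15 had one. All 35 Trbv segments were in that last band. The sources used here do not say how reads with several equally good positions were treated, and the part of this in the counts was not tested.

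Copies of single sites were compared as well. Inside the Tra-Trd locus, 17 peaks had at least 1 copy of their central 61 bases elsewhere in the locus with at most 9 mismatches, and no peak of the Trb locus had one. Counted by position, 25 of the copies had no optimal peak, with more than 1 position at each of Trav6d-7, Trav6n-7 and Trav8d-2. Of these 25, 19 held no unique word and had no peak in either replicate's list. The site of Trav12-1 has 6 such copies, at Trav12d-1, Trav12d-2, Trav12d-3, Trav12n-1, Trav12n-2 and Trav12n-3, which are 91.8 to 100% identical to it and keep a motif without a mismatch. The site of Trav6n-6 has copies 98.4% identical at Trav6d-6 and Trav6-6, again without a peak. The window of Trav6n-6 itself had 64.3% unique words, and both copies had 0%. A low share did not always go with a missing peak. The peak of Trav8-2, with 1.43% unique words around its summit, had a signal of 76.8. The copy at Trav12-2 had 0% around the matching position, but its weak optimal peak of signal 18.5 had 40% around its own summit. Every peak inside the locus had some unique words around its summit.

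Copies with some unique sequence had peaks in part. Of the 25 copies without an optimal peak, 6 had some unique words. A replicate's list had a peak at 4 of these, among which the neighbouring positions at Trav8d-2 shared 1 replicate 2 peak, ranked 62148. The other two, at Trav13d-2 and Trav13n-2, had none, with 14.3% unique words and 98.4% identity to the site by Trav13-2, whose signal was 62.6. A site about 1.7 kb before Trav16d-dv11, Trav16n and Trav16 had a peak in all 3 blocks, with signals of 68.9, 65.8 and 82.1. Replicate 1 gave these 3 sites relative signals of 0.265, 0.408 and 0.842, and replicate 2 gave 1.73, 1.51 and 1.56. All 3 were higher in replicate 2. The site of Trav8n-2 (signal 53.1) had a copy at Trav8-2 that was identical over 61 bases and had a peak of signal 76.8. A relative of the Trav3 site at Trav3-1 was 91.8% identical to that of Trav3-4 and had 94.3% unique words, but it was no optimal peak and ranked 60803 in replicate 1 and 55461 in replicate 2.

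Of the 148 V segments without an optimal summit, 12 had peaks of both replicates' full lists within 1 kb, 23 had a peak of 1 replicate and 113 had none. Those with the best ranks in both were Trav3-1, Trav8d-2, Trdv1, Trdv3, Trav23, Trav18, Trbv23, Trbv24, Trbv7 and Trav21-dv12. Trav3-1 had relative signals of 0.274 and 0.228 in replicates 1 and 2, and Trav8d-2 had 0.335 and 0.194. Trdv1, a delta V segment, had 0.262 and 0.577. All 3 of these had a summit in the conservative list, a second IDR list of 49129 peaks.

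The Tra-Trd locus, from Trav1 to Trac (chr14:52427928-54224206, 1796 kb), held 27 optimal summits, or 15 per Mb, against 19.2 per Mb over the genome. With 50 kb on each side the count was 31, and the strongest 50909 peaks gave 27 in replicate 1 and 36 in replicate 2. The V region held 25 of the summits, the part from the first D segment to Trac 2, the upstream flank 0 and the downstream flank 4. The median signal of the 31 peaks was 74.1. With the V region cut into 5 equal parts, from the distal end to the end nearest the D segments, there were 1, 3, 3, 12 and 6 summits. The same 5 parts had 55.7, 13, 14.8, 40.4 and 88.4% unique words. The most repeated of them, with 36 and 35 V segments, held 3 summits each.

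Away from V segments the locus held some of its strongest sites. A peak 2204 bp before Trav17 (chr14:53804305-53804549) had a signal of 280 and relative signals of 4.14 and 4.30 in replicates 1 and 2. From the summit at Trav17 on came the longest stretch without an optimal summit. It spanned 253.6 kb with Trav17 itself and 10 V segments that had no optimal summit within 1 kb, and 86.3% of its words were unique. Other lists were not empty there. Within 1 kb of Trdv1, inside the stretch, the conservative list had a summit and replicate 2 a peak ranked 34277. The stretch ended at a pair of sites 14942 and 10180 bp before Trdv4, with signals of 120 and 281. The second of these (chr14:54064588-54064854) had relative signals of 4.30 and 4.27, so the libraries gave nearly the same value.

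The D, J and C segments followed with few sites. A peak 1969 bp from the start of Traj61 (chr14:54152934-54153121), the joining segment at the distal end of the J array, had a signal of 158 and relative signals of 2.25 and 2.62. A weak one at Traj15 (summit 54204007) had a signal of 24. Beyond Trac, in the downstream flank, a peak at chr14:54227971-54228424 had a signal of 273 but relative signals of 5.56 in replicate 1 and 1.63 in replicate 2, a wide gap, and no motif match. The highest signal, 387, was in an intron of Dad1 (chr14:54239085-54239385), a subunit gene of the enzyme that attaches sugars to new proteins, with relative signals of 5.91 and 5.60. The promoters of Dad1 and Abhd4 had weak peaks of 29.1 and 13.4.

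The remaining summits of the Tra-Trd V region lay 3659 bp past the start of Trav12-1 (position 53541850, signal 86.4), 3030 bp past that of Trav13-2 (53637859, signal 62.6), 6129 bp before Trav13-4-dv7 (53751227, signal 20.9) and 17739 bp past the start of Trdv4 (54092644, signal 46.9). All were at or below 86.4. The one before Trav13-4-dv7 had no peak within 100 bp in replicate 1.

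The Trb locus, from Trbv1 to Trbv31 (chr6:40891229-41558452, 667 kb), held 15 optimal summits, or 22.5 per Mb, and 16 with its flanks. The replicates gave 11 and 21 summits with flanks, or 16 ± 7.07 (SD, n = 2). All 15 lay in the V region before the first D segment, and 9 of them in 1 stretch of 128 kb, from Trbv2 to Trbv15, which holds 18 of the 35 V segments. The longest stretch without an optimal summit ran for 267.0 kb from position 41263020 to 41529996, over 3 V segments, with 61.8% unique words. Within 1 kb of Trbv29, inside this stretch, replicate 2 had a peak ranked 46173. The median signal of the 16 peaks was 51.1.

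Strong beta sites outside the 1 kb limit lay 2032 bp past the start of Trbv14 (chr6:41137073-41137283, signal 228), 3628 bp before Trbv4 (chr6:41055707-41055810, signal 123) and 2492 bp past the start of Trbv1 (chr6:40893686-40893773, signal 118). The site by Trbv14 had relative signals of 2.19 and 4.43 in replicates 1 and 2. Trbv1 lies alone at the distal end, and its site had 1.92 and 1.55. The Trbv4 site lay 117 bp from a start of the noncoding gene 5830405F06Rik. Weaker peaks lay at positions 41061288 (signal 32), 41109066 (42.2), 41194656 (24.3), 41263020 (38.6) and 41529996 (24.9), the last 3205 bp from Trbd1. In the downstream flank the Ephb6 promoter region, of a receptor gene of the ephrin family, had a peak of 130 (chr6:41604432-41604585).

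**Figure D4:**
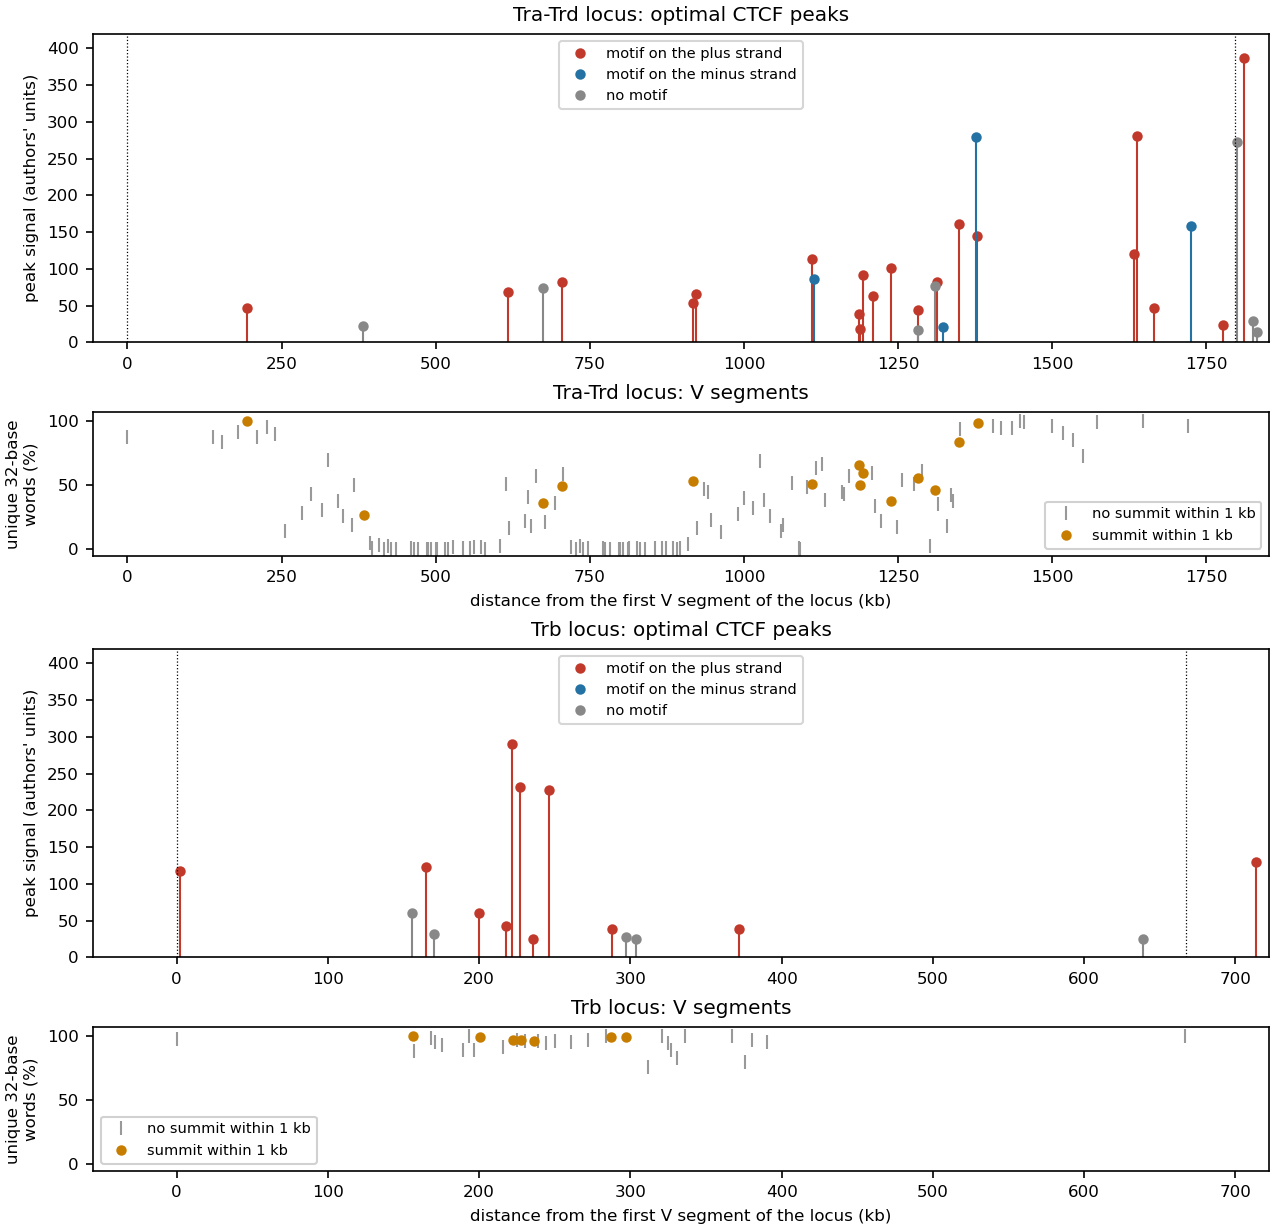
Optimal CTCF peaks of both loci by distance from the first V segment (kb), with the authors' signal as height and the strand of the core motif as colour. Under each, every V segment is placed at its share of unique 32-base words within 1 kb (percent), and dotted lines mark the ends of the locus. Most motifs in both V arrays are on the plus strand, and the middle of the Tra-Trd array has V segments near 0% unique words and no summit beside them.

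Motifs in both V arrays pointed mostly one way. The D, J and C segments lie at higher coordinates than the V arrays, so a motif on the plus strand points to them. Of 31 V region peaks with a match, 28 pointed to the D, J and C segments (90.3%, Wilson 95% interval 75.1 to 96.7%), with 18 of 21 in the Tra-Trd locus and 10 of 10 in the Trb locus. Over all optimal summits with a match, 50.1% were on the plus strand. Copies of one site are not independent, and with such copies joined 23 of 26 groups pointed to the D, J and C segments. The 3 that pointed away lay 2204 bp before Trav17, 3659 bp past the start of Trav12-1 and 6129 bp before Trav13-4-dv7, none within 1 kb of a V segment. From the first D segment on there were 4 matches, and 1 of them, before Traj61, pointed back to the V array.

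Taking all 47 summits of both loci with their flanks, 35 had a motif match (74.5%, 60.5 to 84.7%), against 70.8% over all placed optimal summits. In the strongest 50909 peaks of both replicates stood 34 of the 47 (72.3%), against 76.7% over all. The median signal was 65.8, against 67.9 over all optimal peaks, and 23 of the 47 lay above that all-peak median (48.9%, 35.3 to 62.8%). On soft-masked repeats lay 3 of the 47 summits (6.38%), against 22.5% over all. For motif and replicate support, the all-peak share was within the Wilson interval of the locus peaks, and for repeats it lay above the interval of 2.19 to 17.2%.

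Other genes of the same process were counted as well. Of the 84 D, J and C segments, 2 had a summit within 1 kb, Traj16 and Traj15, which share 1 peak. The same distance called 7.71% of annotated genes of at most 1840 bp. Of 38 genes for recombination factors and T cell proteins, 14 had an optimal summit within 1 kb of a transcript start. That share is close to the 35.2% of all protein-coding genes, so the count is no result about these genes, and the values below only describe them. Among DNA repair factors that join the cut ends, Nhej1 had a signal of 357, Lig4 of 165, Xrcc5 of 141, Xrcc6 of 86.4 and Dclre1c of 11.9. Xrcc4 and Prkdc, of the same group, had no promoter summit. Hmgb1, also on the list, had a signal of 45.8. Of the T cell genes, the kinase Lck had 269, the nuclear factor Tox 195, the receptor chain Cd247 146 and the transcription factor Gata3 114. Tcf3, Satb1, Ikzf1 and Myb were lower, at 41.7, 30.8, 21.5 and 17.3. The other T cell genes of the list, among them Cd4, Cd8a, Zap70 and Runx1, had no promoter summit. No promoter summit was found at Rag1 or Rag2, which encode the recombinase, at Dntt, which adds bases at the joints, at Ptcra, the partner of a new beta chain, or at Cd3d, Cd3e and Cd3g, which encode the signalling chains.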

How the data were processed

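CTCF ChIP-seq peak lists of 2 libraries of embryonic liver at day 14.5 were used. Per the deposited text files, the lists are narrowPeak tables on mm10, called with a control for each replicate and for both pooled. The optimal and conservative lists were thresholded by IDR. The deposited signal comes from the peak caller, with no stated scale, and the deposited offset gives the summit. The peak caller, aligner and read filters are not given in the sources used here. Members and gene lists were chosen with earlier results of these data known. Every V segment with a summit, every peak inside a locus, the strongest flank peaks and the 10 best segments without a summit are named. Summits were placed on GRCm38 and GENCODE vM21 with Python 3.11.15, numpy 2.4.6, pandas 2.3.3 and numba 0.67.0. Motif and distance searches were tested on simulated data. On unplaced scaffolds, 21 optimal peaks were left out of the motif and support shares. Alternatives were other lists, single replicates, distances, flanks and motif settings.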

Additional observations from a re-analysis of the deposited data

How the results depend on the processing

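Under the conservative list every count and share stayed within the limits used (1.5 times for counts, the Wilson interval for shares). Without 1 replicate, the count of V segments with a summit ran from 16 to 24, summits in the Tra-Trd locus from 27 to 36, summits in the Trb locus from 11 to 21, the motif share from 75.4 to 76.3% and the share pointing to the joining segments from 83.3 to 92.0%. Among optimal peaks above the median signal, 10 V segments had a summit, the Tra-Trd locus held 17 and the Trb locus 6, 87.0% had a motif and 22 of 23 were in both replicates' strongest peaks. With 2 kb in place of 1 kb 32 V segments were counted, and with 5 kb 46. The motif share was 48.9% with at most 1 mismatch and 85.1% with at most 3. The mean signal of the 47 peaks was 97.4, against a median of 65.8. In all, 10 of 42 alternative values moved beyond these limits, and the share pointing to the joining segments did so under none of those tried. No paired analysis was possible because there is 1 group. Read depth is unknown, so a missing peak says only that none was called.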

Other observations

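V segments outside the symbol rule were counted at the same distance. In the gamma chain locus on chromosome 13, 2 of 7 V segments had an optimal summit within 1 kb, Tcrg-V7 and Tcrg-V3. The share was 12.4% of the 169 segments under the symbol rule and 7.71% of genes of at most 1840 bp. With only 7 gamma segments the difference was not tested. On chromosome 14, the V segments annotated as C920008G01Rik and B230359F08Rik had none. Of the neighbours in and around both loci, 0 of 6 olfactory receptor genes and 0 of 7 Prss and Try genes had one, against 31.9% of all annotated genes. These sets are too small for the counts to be read as a result about them.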
